A study of Mus musculus with 12 samples.

Results

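The genes described here belong to the cytosolic heat shock response: the transcription factor gene Hsf1 and the chaperone and co-chaperone genes Hspa1a, Hspa1b, Hspa8, Hsph1, Hspb1, Hspb8, Dnajb1, Bag3 and Hsp90aa1. These 10 genes were chosen by symbol, with earlier results of these data known, from the 48795 genes of the deposited tables. After a filter on low counts, 9 of the 10 were tested, among 14704 genes in all. Hspb1 did not pass the filter, since it was listed at 0 counts in all 12 libraries.

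The samples were 3 clones of the mouse fibroblast line NIH3T3 in which Aebp1 had been knocked out, named F5, G5 and H7, and the wild-type parental line. NIH3T3 is an immortalised line from mouse embryos. The title of the series is about AEBP1 in the fibroblasts of tumours, and the design text sets the parental line against the clones. Each clone was sampled at passages 7, 8 and 9 and the parental line at passages 6, 7 and 8, which gave 4 groups of 3 libraries. All cells grew in DMEM/F12 medium with serum, and no heat or drug treatment is named in the labels. A clone descends from a single founder cell, whereas the parental line is not labelled as a clone. Effects of cloning and of the knockout therefore cannot be told apart. Whether F5, G5 and H7 come from separate founders was not tested. By the test used below, 0.258% of all tested genes differed between F5 and G5. H7 differed from F5 in 17.9% and from G5 in 17.4%. Whether the passages were separate cultures is not stated in the labels, and the p-values cover no more than the spread among these libraries, which may be technical.

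HSF1 is held inactive by chaperones in unstressed cells. When proteins unfold, it forms trimers that bind heat shock elements, which are inverted repeats of GAA, in the promoters of chaperone genes. Its inducible targets include the HSP70 genes Hspa1a and Hspa1b. HSP70 proteins fold clients with the help of J proteins such as DNAJB1 and of nucleotide exchange factors such as HSPH1 and BAG3. HSP90 proteins take over late folding steps of kinases and receptors, and the small heat shock proteins HSPB1 and HSPB8 hold unfolded clients.

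Library totals lay between 22088695 and 31329735 counts. Aebp1, in library-scaled counts (CPM), averaged 193 ± 19.9 for F5, 128 ± 8.46 for G5 and 147 ± 14.4 for H7, against 553 ± 76.5 CPM in the parental line (SD, n = 3 each). Its messenger RNA was thus still detected in every clone, at a lower level than in the parental line. All 10 fibroblast markers checked had counts in every group, with summed levels of 24377 to 25748 CPM (F5), 23325 to 25142 (G5) and 24545 to 27874 (H7), against 24831 to 29211 CPM in the parental line. For the mean of the clones without a place term, 3 of these 10 markers were lower, Col3a1 at -1.14, Col1a1 at -0.46 and Pdgfrb at -0.35 on the log2 scale (edgeR adjusted p = 0.00338, 0.0161 and 0.0494). The summed epithelial markers were at 0.626 to 1.03 CPM in H7 and at or below 0.307 CPM in the other lines, and the endothelial markers at or below 1.19 CPM in every library. The leukocyte markers summed to between 3.29 and 5.49 CPM. Fewer cells of a kind and less RNA per cell cannot be told apart in such bulk samples, and the part of these markers in the results below was not tested.

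Levels can be compared between genes only per length, which the deposited TPM (length-normalised transcript levels) allow. The constitutive HSP70 gene Hspa8 was the most abundant of the 10 genes, at 888 ± 102 TPM over the 12 libraries, and the inducible HSP90 gene Hsp90aa1 followed at 348 ± 57.1 TPM. Hspb8 at 80.1 ± 10.5 TPM and Hsph1 at 75.2 ± 11.97 TPM came next, and Hspb8 was the higher of this pair in 8 of 12 libraries only. Bag3 at 51.5 ± 5.83 TPM and Hsf1 at 49.3 ± 6.87 TPM did not separate either, since Bag3 was above Hsf1 in 5 of 12 libraries. Dnajb1 stood at 20.1 ± 1.93 TPM, and in 10 of 12 libraries it was above Hspa1b, which stood at 13.9 ± 4.37 TPM. Hspa1a was the lowest of the tested genes at 2.37 ± 0.638 TPM. The constitutive HSP70 gene thus lay above 99.2% of all tested genes, the inducible gene Hspa1b above 50.7% and its copy Hspa1a above 20.5%. Reads of Hspa1a and Hspa1b are hard to assign, as described below.

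Among the chaperones and co-chaperones, Bag3 was lower in every clone, the HSP70 gene Hspa1b and the exchange factor gene Hsph1 set F5 and G5 apart from H7, and Hsf1 was higher in H7. A gene was called where edgeR's quasi-likelihood F-test gave an adjusted p under 0.05 over all genes tested. For the mean of the 3 clones, fitted with a term for the place of a library in the passage order of its line, 6 of the 9 tested genes were called, where 33.4% of all tested genes were called, 15.6% higher and 17.8% lower. Hsf1, Hspa8 and Hsp90aa1 were higher, and Hspa1b, Hsph1 and Bag3 were lower. Without parental passage 7, Hsf1 (0.12, edgeR adjusted p = 0.118) and Hsph1 (-0.11, adjusted p = 0.124) lost their calls, and Hspa1b was at -0.24, in place of -0.38. Both calls were also lost with the median of each chromosome taken out (Hsf1 0.05, adjusted p = 0.638, and Hsph1 -0.13, adjusted p = 0.0781). Of 24 alternatives, 7 ended the call of Hsf1 and 12 that of Hsph1. Without the place term the count was 1, Bag3, where 19.0% of all genes were called. Against the parental line, 3 of the 9 genes were called in F5 and all were lower, where 14.3% of all genes were called and 7.37% were lower. In G5 it was 1 lower gene, where 13.1% were called and 6.56% were lower. In H7, 2 genes were higher and 1 was lower, where 19.6% were called, 9.64% higher and 9.92% lower. Without H7 passage 7 the count in H7 was 0, without H7 passage 8 or parental passage 8 it was 1, and without F5 passage 7 that in F5 was 1. Groups of 3 libraries that do not overlap were common: of all genes, 15.0% were higher and 15.1% lower in every F5 library than in every parental library, 13.9% and 14.2% in G5, and 16.8% and 17.3% in H7. The 3 clone comparisons share the parental libraries.

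**Figure D1:**
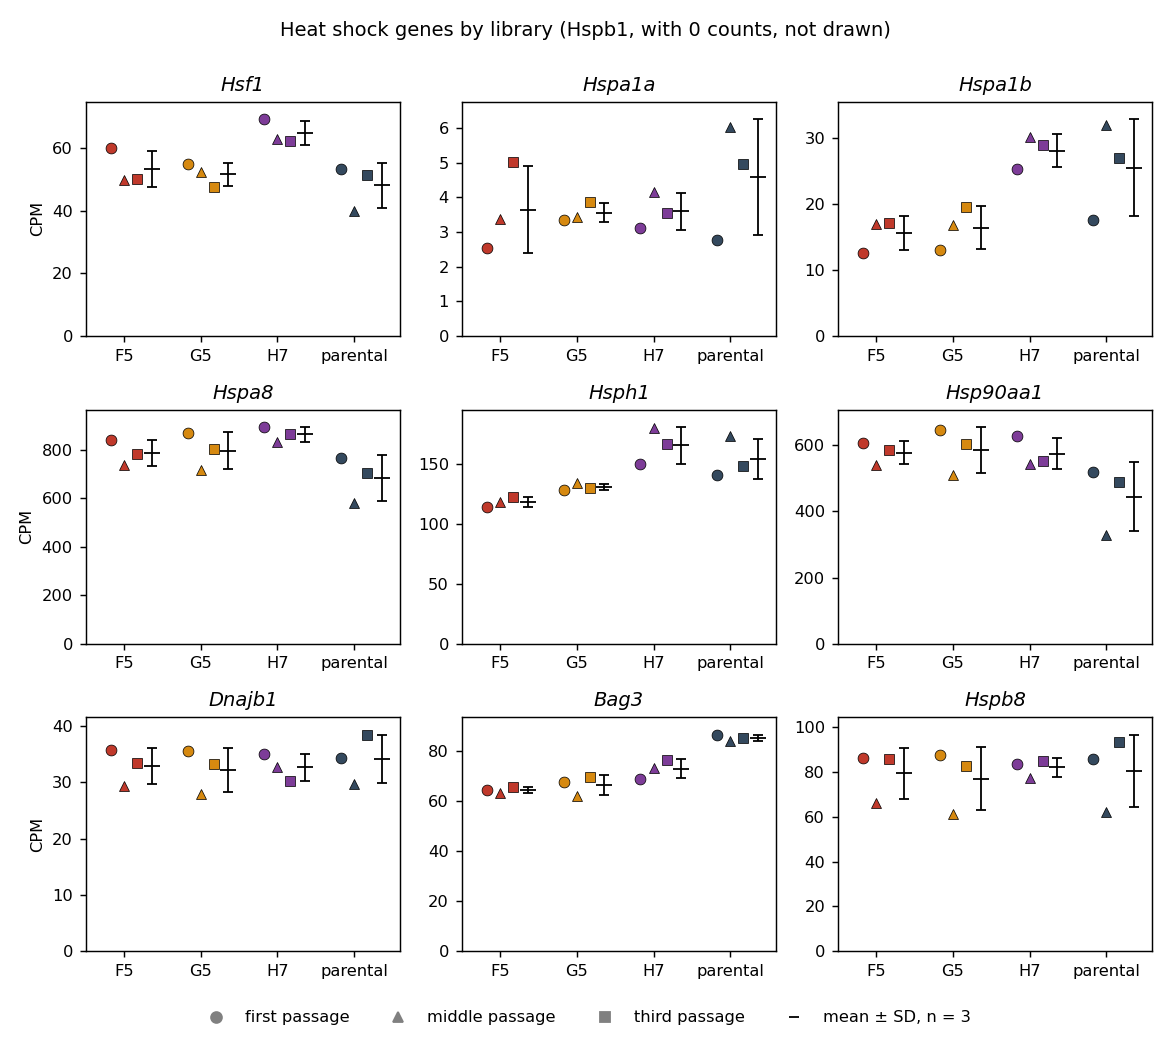
Level of each tested heat shock gene in every library (y axis, CPM, starting at 0), with F5, G5, H7 and then the parental line along the x axis. Points are libraries with the shape giving the passage, and bars are the mean ± SD (n = 3). All 9 clone libraries of Bag3 lie between 62.1 and 76.4 CPM, below the parental libraries at 84.1 to 86.6 CPM.

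Bag3 encodes a co-chaperone that links HSP70 to small heat shock proteins and to selective autophagy. Its level was 64.2, 63.4 and 65.7 CPM in F5, 67.5, 62.1 and 69.7 CPM in G5, and 68.8, 73.4 and 76.4 CPM in H7, against 86.6, 84.1 and 85.4 CPM in the parental line. No clone library reached the lowest parental library. Of all tested genes, 5.16% were lower in all 9 clone libraries than in all parental libraries. F5 changed by -0.41 on the log2 scale (SE 0.06, edgeR adjusted p = 0.00194). G5 changed by -0.36 (SE 0.06, adjusted p = 0.00389) and H7 by -0.23 (SE 0.06, adjusted p = 0.0260). Bag3 was the only one of the 9 genes called lower in all 3 clones, a pattern that 2.14% of all genes showed. Averaged over the clones the change was -0.33 (SE 0.04, adjusted p = 0.000296). Bag3 also varied least within groups, with an SD of 0.06 on the log2 scale, where the median gene had 0.18.

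Bag3 lies on chromosome 7 (GRCm38, 128523616 to 128546981, plus strand). The 1127 tested genes of that chromosome had a median of -0.20 for F5, -0.08 for G5 and -0.03 for H7. With the median of each chromosome taken out, Bag3 was at -0.21 in F5 (edgeR adjusted p = 0.0522) and at -0.20 in H7 (adjusted p = 0.0595), which ended both calls. In G5 it kept its call. The call in H7 was also lost without H7 passage 7 (-0.19, adjusted p = 0.111), H7 passage 8 (-0.22, adjusted p = 0.0824), parental passage 6 (-0.21, adjusted p = 0.0611) or parental passage 8 (-0.23, adjusted p = 0.0582). Using no filter on low counts (-0.21, adjusted p = 0.110) or only the compared libraries (-0.21, adjusted p = 0.116) ended that call as well. In F5 and G5 no left-out library ended it, but in G5 the fit of only the compared libraries did (-0.35, adjusted p = 0.0588).

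Hspa1a and Hspa1b are neighbouring genes on chromosome 17 that encode nearly the same inducible HSP70 protein. Hspa1b had 12.6, 16.9 and 17.2 CPM in F5, 13.0, 16.8 and 19.5 CPM in G5, and 25.3, 30.2 and 28.9 CPM in H7, against 17.6, 32.1 and 27.0 CPM in the parental line. F5 and G5 lay together at the low end, and the H7 libraries lay inside the range of the parental line. The share of counts from mitochondrial genes split the lines the same way, with 2.02% to 2.36% in F5, 2.09% to 2.55% in G5 and 2.68% to 4.00% in H7, against 2.60% to 2.87% in the parental line, and its part in the result was not tested. Against the parental line, F5 changed by -0.71 on the log2 scale (SE 0.21, edgeR adjusted p = 0.0469). The value for G5 was -0.64 (SE 0.21, adjusted p = 0.0747, not called), and that for H7 was 0.14 (SE 0.21, adjusted p = 0.701). The parental library of passage 6, at 17.6 CPM, was close to the highest F5 library. Without it the change in G5 was -0.84 and was called (adjusted p = 0.0136), and without parental passage 7 it was -0.44 and not called (adjusted p = 0.205). The call in F5 was lost on leaving out any of 10 of the 12 libraries, with adjusted p between 0.0566 and 0.159.

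Hspa1a was the scarcer copy, with 2.53, 3.39 and 5.01 CPM in F5, 3.36, 3.44 and 3.86 CPM in G5, and 3.10, 4.16 and 3.54 CPM in H7, against 2.77, 6.04 and 4.96 CPM in the parental line. The groups overlapped, and no clone differed from the parental line by the test (log2 fold changes of -0.34, -0.37 and -0.35 for F5, G5 and H7, each with SE 0.29 and edgeR adjusted p of 0.447 or more). Reads of the 2 genes are hard to assign: 58.8% of the 50-base stretches of the Hspa1a transcript and 62.3% of those of Hspa1b occur in the other gene. Hspa1a took 16.7% to 22.6% of the summed counts in F5, 16.5% to 20.5% in G5 and 10.9% to 12.1% in H7, against 13.6% to 15.8% in the parental line. Summed, the genes changed by -0.65 in F5 (SE 0.22, adjusted p = 0.0713) and by -0.59 for G5 (SE 0.22, adjusted p = 0.102), so neither clone was called on the sum.

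The promoters of this gene pair are shown because the genes are near-identical there too, together with those of Hsph1, which also separated F5 and G5 from H7, and of Bag3, which was lower in every clone. Each line gives the 250 bases before the RefSeq transcript start (GRCm38.p6, minus strand for the first 3 and plus strand for Bag3), 5′ to 3′. Capitals mark a heat shock element of 2 units, searched as GAANNTTC or TTCNNGAA on either strand, which these palindromes share. The windows are chr17:34972157-34972406 for Hspa1a, chr17:34959239-34959488 for Hspa1b, chr5:149636337-149636586 for Hsph1 and chr7:128523333-128523582 for Bag3.
Hspa1a: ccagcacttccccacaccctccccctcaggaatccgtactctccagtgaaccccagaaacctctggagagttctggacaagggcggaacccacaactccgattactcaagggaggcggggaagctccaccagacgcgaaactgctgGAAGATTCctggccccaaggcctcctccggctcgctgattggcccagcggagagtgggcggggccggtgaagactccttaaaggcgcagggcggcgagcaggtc
Hspa1b: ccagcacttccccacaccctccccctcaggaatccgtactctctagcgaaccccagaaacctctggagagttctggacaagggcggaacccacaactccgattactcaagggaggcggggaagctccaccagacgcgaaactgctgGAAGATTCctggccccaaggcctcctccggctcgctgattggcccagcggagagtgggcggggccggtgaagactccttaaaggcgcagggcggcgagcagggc
Hsph1: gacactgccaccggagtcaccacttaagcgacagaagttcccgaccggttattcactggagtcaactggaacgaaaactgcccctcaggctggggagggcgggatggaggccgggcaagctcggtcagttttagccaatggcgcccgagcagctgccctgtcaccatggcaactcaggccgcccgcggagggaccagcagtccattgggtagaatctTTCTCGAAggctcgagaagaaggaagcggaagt
Bag3: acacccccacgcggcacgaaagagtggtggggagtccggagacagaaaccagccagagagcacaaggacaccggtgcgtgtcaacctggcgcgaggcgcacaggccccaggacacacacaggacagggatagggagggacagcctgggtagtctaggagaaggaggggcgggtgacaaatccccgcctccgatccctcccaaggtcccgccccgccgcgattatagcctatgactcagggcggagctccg

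The windows of Hspa1a and Hspa1b were the same at 247 of 250 bases (98.8%). Counted from 1 at the 5′ end, with the base of Hspa1a first, they differed by C44T, T47C and T249G, none of them in the element. Promoter windows were found for 7 of the 10 genes. At least 1 element of 2 units lay upstream of the start in 4 of them, Hspa1a, Hspa1b, Hsph1 and Hspb1, and in 12.8% of 32851 windows of all genes. Hspb1, listed at 0 counts, held 2 such elements. An element of 3 alternating units lay upstream in none of the 7 and in 0.466% of all windows. Hsph1 held a 3-unit match past the start, and Bag3 held only a 2-unit match past the start. Such matches describe letters in a window and do not show binding.

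Hsph1 encodes HSP110, an exchange factor for HSP70 that also takes part in dissolving aggregates. Its level was 114, 119 and 123 CPM in F5, 129, 134 and 130.2 CPM in G5, and 150.1, 181 and 167 CPM in H7, against 141, 173 and 149 CPM in the parental line. All F5 and G5 libraries lay below every H7 and every parental library, and how many of all genes show this was not counted. Hsph1 was lower in F5 (log2 fold change -0.38, SE 0.09, edgeR adjusted p = 0.0156). In G5 its change of -0.24 (SE 0.09, adjusted p = 0.103) was not called, and in H7 it was 0.11 (SE 0.09, adjusted p = 0.455). The call in F5 was lost without F5 passage 7 (-0.36, adjusted p = 0.0630), in both limma fits and in the fit of only the compared libraries.

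The difference between clones was tested directly. Between F5 and H7, 2 of the 9 genes were called and both were lower in F5, where 17.9% of all genes were called and 8.50% were lower. Their libraries did not overlap, as for 19.8% of all genes in that direction. Hspa1b differed by -0.85 (SE 0.21, edgeR adjusted p = 0.0174) and Hsph1 by -0.49 (SE 0.09, adjusted p = 0.00310). Between G5 and H7 the same 2 genes were called and both were lower in G5, where 17.4% of all genes were called and 8.51% were lower. Again the libraries did not overlap, as for 18.5% of all genes in that direction. Hspa1b differed by -0.78 (SE 0.21, adjusted p = 0.0278) and Hsph1 by -0.34 (SE 0.09, adjusted p = 0.0203). Summed with Hspa1a, Hspa1b differed by -0.72 between F5 and H7 (adjusted p = 0.0402) and by -0.67 between G5 and H7 (adjusted p = 0.0576, not called). Between F5 and G5, edgeR called 0 of the 9 genes, 0 had an unadjusted p under 0.05, and DESeq2 and limma also called 0, where edgeR called 0.258% of all genes. The difference of Hsph1 between F5 and H7 kept its call in all 24 alternatives tried. That of Hspa1b lost its call without F5 passage 7 (-0.72, adjusted p = 0.0724), H7 passage 8 (-0.81, adjusted p = 0.0567) or H7 passage 9 (-0.84, adjusted p = 0.0518). Other genes were lower in the same comparisons: 6 of 12 immediate early genes and 3 of 10 fibroblast markers in F5 against H7, and 4 of 12 and 4 of 10 in G5 against H7, with 0 higher in each. Aebp1 itself was higher in F5 than in H7 (0.39, SE 0.12, adjusted p = 0.0387). The part of these genes in the result was not tested. Between G5 and H7 the count was 0 without G5 passage 7, H7 passage 8 or H7 passage 9, and 1 without G5 passage 8 or G5 passage 9.

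**Figure D2:**
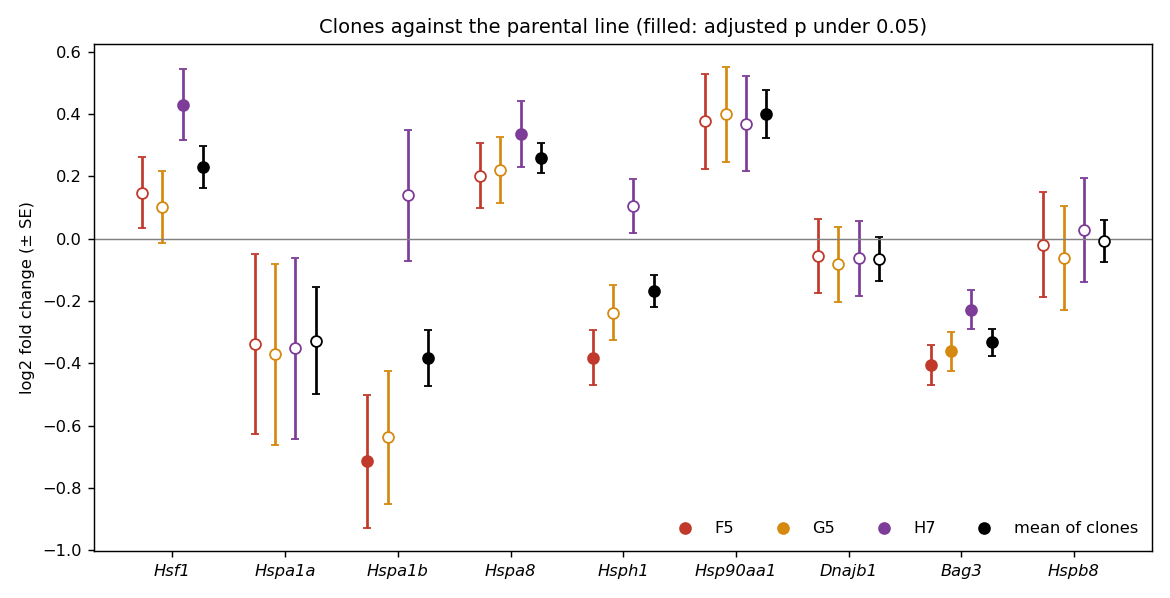
Log2 fold change against the parental line (y axis, ± SE) of each tested heat shock gene (x axis) for F5, G5, H7 and the clones averaged. Filled circles have an edgeR adjusted p under 0.05, and the average carries the place term. Bag3 lies below 0 in all 3 clones, while Hspa1b lies at -0.71 (F5), -0.64 (G5) and 0.14 (H7).

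Hsf1, the regulator itself, had 60.1, 49.99 and 50.1 CPM in F5, 54.9, 52.4 and 47.6 CPM in G5, and 69.3, 63.1 and 62.4 CPM in H7, against 53.3, 40.0 and 51.3 CPM in the parental line. Every H7 library lay above every parental library, as for 16.8% of all genes, and above every F5 and G5 library. How many of all genes were higher in H7 than in all other lines was not counted. Hsf1 was higher in H7 (log2 fold change 0.43, SE 0.11, edgeR adjusted p = 0.0224). In F5 the change was 0.15 (SE 0.11, adjusted p = 0.441) and in G5 it was 0.10 (SE 0.11, adjusted p = 0.624), and neither was called. The differences of -0.28 between F5 and H7 (adjusted p = 0.117) and of -0.33 between G5 and H7 (adjusted p = 0.0729) were not called. The call in H7 was lost without H7 passage 7 (0.38, adjusted p = 0.0863), without the middle passages of all lines (0.34, adjusted p = 0.0647) and in the fit of only the compared libraries (0.44, adjusted p = 0.0651).

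Hsf1 lies on chromosome 15 (GRCm38, 76477422 to 76501913, plus strand), and 86.9% of its tested genes had a positive fold change in H7. Whether this held along the whole chromosome was not tested. The 534 tested genes of chromosome 15 had a median of 0.45 in H7, with 0.06 for F5 and 0.04 for G5, and 52.8% of them were called higher in H7. Among the 10 tested genes next to Hsf1, Fbxl6 stood at 0.64 (adjusted p = 0.00126), Maf1 at 0.55 (adjusted p = 0.00339) and Dgat1 at 0.10 (adjusted p = 0.454) in H7. With the median of each chromosome taken out, Hsf1 in H7 was at -0.01 (adjusted p = 0.953), and 0 of the 9 genes were called in H7. The number of copies of chromosome 15 was not tested.

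**Figure D3:**
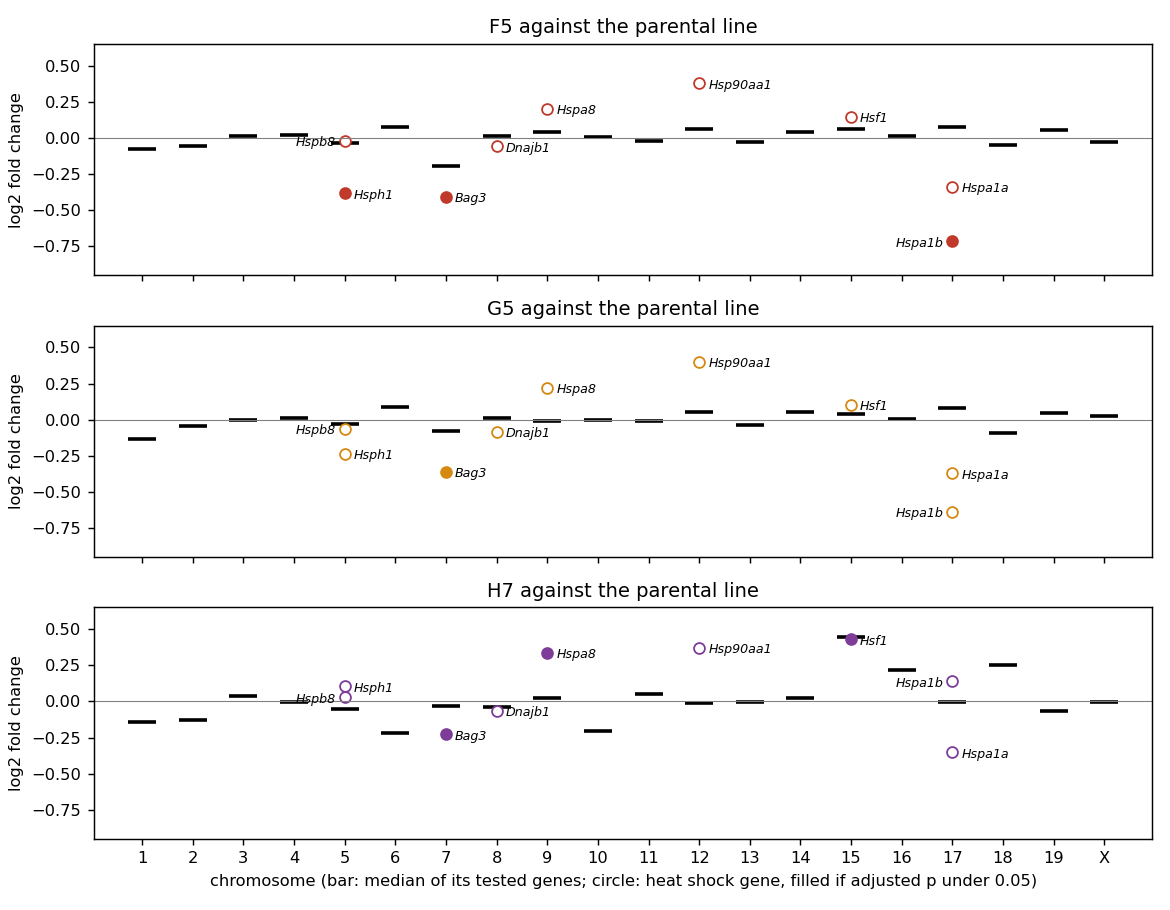
Median log2 fold change of the tested genes of each chromosome (bars) and the log2 fold change of each heat shock gene (circles, filled where the adjusted p is under 0.05), in F5, G5 and H7 against the parental line. In H7 the bar of chromosome 15 stands at 0.45 and Hsf1 beside it at 0.43.

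Hspa8 encodes the constitutive HSP70 of the cytosol. It had 842, 736 and 785 CPM in F5, 869, 717 and 806 CPM in G5, and 896, 834 and 865 CPM in H7, against 767, 581 and 706 CPM in the parental line. Only the H7 libraries all lay above the parental range. The gene was called higher in H7 (log2 fold change 0.34, SE 0.11, edgeR adjusted p = 0.0444), and not in F5 (0.20, SE 0.11, adjusted p = 0.232) or in G5 (0.22, SE 0.11, adjusted p = 0.201). The call in H7 was lost under 13 of 24 alternatives, among them leaving out any H7 library or parental passage 7 (0.23, adjusted p = 0.0997). Averaged over the clones the change was 0.26 (SE 0.05, adjusted p = 0.00246), and without the place term it was 0.25 (SE 0.09, adjusted p = 0.0653).

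The counts of Hspa8 are shared with pseudogenes: 73.2% of the 50-base stretches of its transcript occur in other genes, and 70.0% in Gm15459 alone. The 3 pseudogenes tabulated that hold at least 20% of these stretches took 45.3% to 47.3% of the counts summed over them and Hspa8. Summed, the level was 1388 to 1564 CPM (F5), 1333 to 1623 (G5) and 1581 to 1645 (H7), against 1072 to 1419 CPM in the parental line. The sum was higher in H7 by 0.34 (SE 0.11, edgeR adjusted p = 0.0454). The TPM of Hspa8 given above therefore covers only its own share of these reads.

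Hsp90aa1 encodes the inducible cytosolic HSP90. It had 608, 540.0 and 586 CPM in F5, 646, 511 and 604 CPM in G5, and 628, 544 and 553 CPM in H7, against 519.8, 328 and 488 CPM in the parental line. All F5 and all H7 libraries lay above the parental range, and in G5 passage 8 fell inside it. No clone was called, with log2 fold changes of 0.38, 0.40 and 0.37 for F5, G5 and H7 (SE 0.15 each, edgeR adjusted p = 0.126, 0.112 and 0.118). Averaged over the clones the change was 0.40 (SE 0.08, adjusted p = 0.00297), and without the place term 0.38 (SE 0.13, adjusted p = 0.0577). The parental library of passage 7, at 328 CPM, was the lowest of the 12. Without it the changes were 0.20, 0.22 and 0.19 for F5, G5 and H7, and 0.26 averaged over the clones (adjusted p = 0.00129, called). With the place term also in the comparison of each clone, Hsp90aa1 was called higher in all 3 (adjusted p = 0.00954, 0.00855 and 0.00871). That term raised the calls over all 14704 genes too. There 2025, 1925 and 2350 were higher in F5, G5 and H7, in place of 1012, 961 and 1418. The near-identical pseudogenes of Hsp90aa1 took at most 1.42% of the summed counts.

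The remaining genes passed no test between the lines. Hspb8, a small heat shock protein that works with BAG3, had 86.1, 66.1 and 85.9 CPM in F5, 87.4, 61.2 and 82.4 CPM in G5, and 83.4, 77.4 and 85.0 CPM in H7, against 85.7, 62.2 and 93.4 CPM in the parental line. Dnajb1, the main J protein partner of inducible HSP70, had 35.6, 29.3 and 33.5 CPM in F5, 35.5, 27.9 and 33.1 CPM in G5, and 34.9, 32.8 and 30.2 CPM in H7, against 34.2, 29.7 and 38.4 CPM in the parental line. The groups overlapped for both genes, with log2 fold changes, averaged over the clones, of -0.01 (SE 0.07, edgeR adjusted p = 0.946) for Hspb8 and -0.07 (SE 0.07, adjusted p = 0.502) for Dnajb1. Hspb1, the other small heat shock protein gene, was at 0 counts in all libraries. That allows at most 0.0357 CPM for F5, 0.0398 for G5, 0.0386 for H7 and 0.0426 for the parental line, from 3 counts over the libraries of each group and for counting error only. The limit holds for reads as the authors assigned them: 51.6% of the 50-base stretches of the Hspb1 transcript occur in its pseudogene Hsp25-ps1, which was also listed at 0, and the part of read assignment in these values was not tested. Of 21772 protein-coding genes, 26.1% were at 0 in all 12 libraries.

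Within each line, several of these genes were lower at the middle of the 3 passages. In the fit over all 4 lines, 5 of the 9 genes were called between the middle passage and the mean of the first and the third, where 32.1% of all genes were called, 16.5% higher and 15.6% lower. Hspb8 was lower at the middle passage (log2 difference -0.37, SE 0.06, edgeR adjusted p = 0.00206), as were Hsp90aa1 (-0.29, SE 0.07, adjusted p = 0.0116), Dnajb1 (-0.20, SE 0.06, adjusted p = 0.0357) and Hspa8 (-0.19, SE 0.04, adjusted p = 0.00834). Hspa1b was higher (0.25, SE 0.08, adjusted p = 0.0384), with its highest library at the middle passage in 2 of 4 lines. Summed with Hspa1a it was at 0.24 and not called (adjusted p = 0.0516). Hspa8, Hspb8 and Hsp90aa1 had their lowest library at the middle passage in all 4 lines, as did 13.3% of all genes. The parental line showed the largest step of the 4 lines for these 3 genes and for Hspa1b. Hsp90aa1 at the middle passage stood at -0.15 log2 units from the mean of the other passages for F5, -0.29 for G5, -0.12 for H7 and -0.62 for the parental line. Leaving out parental passage 7 reduced the count to 3 genes, as did leaving out parental passage 8, F5 passage 7, F5 passage 9 or G5 passage 7, and no gene was then called higher.

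Between the third and the first passage, edgeR called 0 of the 9 genes, 3 had an unadjusted p under 0.05, DESeq2 called 1 and limma called 0, where edgeR called 1.12% of all genes. Without parental passage 7 the count was 2. Hspa1b came closest to the threshold (0.45, SE 0.10, edgeR adjusted p = 0.0541), and its first passage was the lowest of the 3 in all 4 lines. The share of all genes with that pattern was not counted. What differed between passages in culture or handling is not given, so its part cannot be told apart from passage. Immediate early genes, which respond to serum and handling, are given with the same fits: 3 of 12 were higher and 3 lower at the middle passage, and 0 were higher and 3 lower at the third passage against the first (7 lower at an unadjusted p under 0.05). Their summed level was 536 to 745 CPM (F5), 514 to 786 (G5) and 624 to 833 (H7), against 734 to 984 CPM in the parental line. Their part in the heat shock gene differences was not tested.

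**Figure D4:**
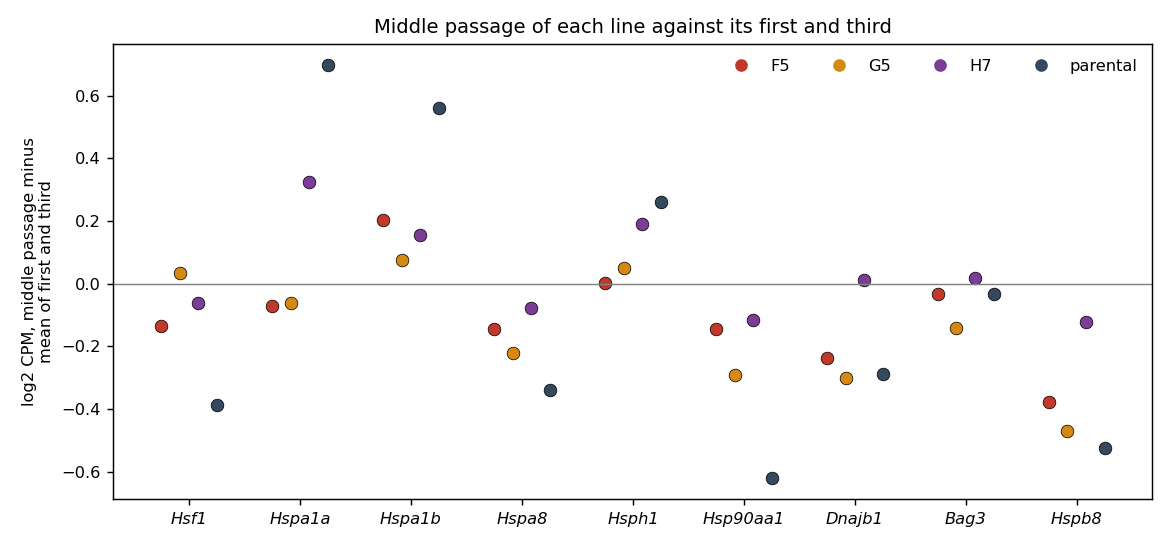
Log2 CPM at the middle passage minus the mean of the first and the third (y axis), for each tested heat shock gene (x axis) in F5, G5, H7 and the parental line. Hspa8, Hspb8 and Hsp90aa1 lie below 0 in all 4 lines, and Hsp90aa1 in the parental line is the lowest point at -0.62.

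The levels of the genes over the 12 libraries were compared in pairs. Likeness was taken as the root mean square difference between the log2 deviations of 2 genes from their own means. The closest pairs were Hspb8 and Dnajb1 (0.11), Hsf1 and Hspa8 (0.11) and Hspa8 and Hsp90aa1 (0.11). This difference is also small for genes that vary little, and Dnajb1 spanned 0.46 log2 units, where the median gene spanned 0.77. How often pairs of other genes come as close was not counted. Of 10497 other genes with a mean of at least 5 CPM, those closest to the summed Hspa1a and Hspa1b were Cyb5a (0.13), Mindy1 (0.15), Pcdhb21 (0.15), Erap1 (0.15) and Btg2 (0.15). Cyb5a, which encodes cytochrome b5, averaged 23.7 ± 3.03 CPM (F5), 26.3 ± 2.46 (G5) and 39.1 ± 4.41 (H7), against 39.6 ± 7.88 CPM in the parental line (SD, n = 3 each). These genes were picked for this pattern, so their likeness is a description.

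The rest of the cytosolic chaperone network was described from 7 further lists with 59 genes, of which 54 were tested. For the mean of the clones without a place term, 6 of the 54 were higher and 7 lower, where 8.55% of all genes were called higher and 10.5% lower. Their median log2 fold change was 0.09, against -0.02 for all genes. With a place term 16 were higher and 10 lower, where 15.6% of all genes were called higher and 17.8% lower. Without parental passage 7 the count of 13 fell to 8.

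TRiC is the chaperonin ring that folds actin and tubulin. All 8 of its subunit genes had a positive fold change, with a median of 0.30, and 3 were called. Cct5 stood at 0.43 (SE 0.10, edgeR adjusted p = 0.0109), Cct8 at 0.38 (SE 0.12, adjusted p = 0.0455) and Cct4 at 0.31 (SE 0.09, adjusted p = 0.0279). Cct5 and Cct8 were called in H7 (0.69 and 0.58, adjusted p = 0.00188 and 0.0157), and Cct4 in F5 and G5 (0.35 and 0.38, adjusted p = 0.0459 and 0.0363). The values of this and the other lists include any shift of a gene's whole chromosome. In H7 the chromosome medians ran from -0.22 (chromosome 6) to 0.45 (chromosome 15), and their part in the calls of these genes was not tested. Among HSP90 beta and the HSP90 co-chaperones, 2 of 12 were higher and 1 lower, with a median of 0.14. Hsp90ab1, the constitutive HSP90, stood at 0.37 (SE 0.10, adjusted p = 0.0269) and the immunophilin gene Ppid at 0.36 (SE 0.07, adjusted p = 0.00670). Unc45a, whose protein helps fold myosin, was lower at -0.30 (SE 0.05, adjusted p = 0.00197).

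Of the HSF factors and HSF1 regulators, 3 of 7 tested were lower, with a median of -0.33. Sirt1, a deacetylase that prolongs HSF1 binding to DNA, stood at -0.60 (SE 0.09, edgeR adjusted p = 0.00131) and was called in F5 and H7. Ier5, whose protein promotes HSF1 activity, stood at -0.33 (SE 0.07, adjusted p = 0.00699) and was called in all 3 clones. Hsf4, known for its role in the lens, stood at -0.63 (SE 0.20, adjusted p = 0.0457). Of the other J proteins, 2 of 10 were lower, Dnaja4 at -0.94 (SE 0.13, adjusted p = 0.000897) and Dnajb4 at -0.35 (SE 0.11, adjusted p = 0.0407). Dnaja4 was called lower in F5 (-1.22), G5 (-1.01) and H7 (-0.58). Hspa12b was the only called gene among 6 other HSP70 and HSP110 genes (-0.47, SE 0.10, adjusted p = 0.00616). St13, which encodes the HSP70-interacting protein HIP, was the only called gene among 8 exchange factors and CHIP (0.30, SE 0.06, adjusted p = 0.00639). Of the other small heat shock protein genes, 3 of 6 were tested and edgeR called 0, with 1 at an unadjusted p under 0.05.

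**Figure D5:**
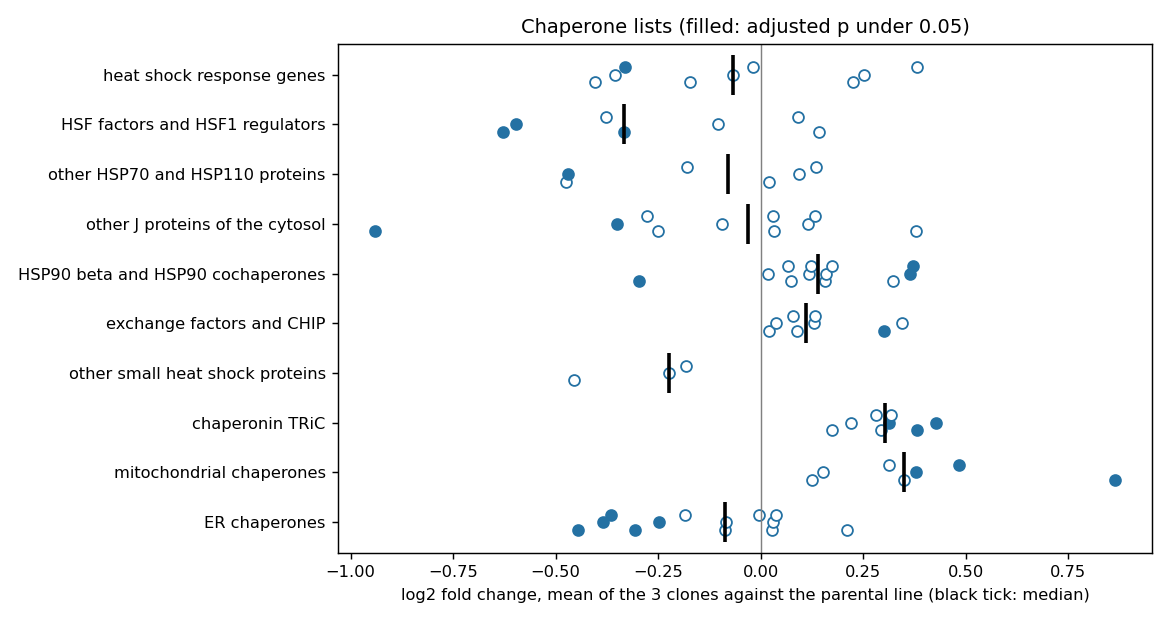
Log2 fold change of the clones, averaged, over the parental line and without a place term (x axis), of the tested genes of each chaperone list (rows). Filled circles have an edgeR adjusted p under 0.05 and black ticks are list medians. All 8 TRiC genes lie above 0, with a median of 0.30.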

How the data were processed

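Ribosome-depleted, stranded total RNA was sequenced from both ends in 12 libraries, per the labels' protocols. Estimated counts without normalisation, and TPM, were deposited by the authors for the same 48795 Ensembl genes. The build was GRCm38, per the submitters' processing notes. The sources used here do not give the aligner, counting tool, annotation or use of strand. Reads of near-identical genes may therefore be split. GENCODE M21 gave a symbol to 48435 identifiers. Estimated counts were rounded to whole numbers before testing (86.9% of those over 0.5 were already whole to within 0.01).

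Genes were filtered with filterByExpr on the 4 groups and tested with edgeR's quasi-likelihood F-test in 1 fit of all 12 libraries, with TMM factors and Benjamini-Hochberg adjustment, at 0.05. Group was the only term, with 8 residual degrees of freedom, for each clone, the pairs of clones and the wider lists. The mean of the clones and the passage comparisons were fitted with the place in the passage order as a further term, with 6. That term was written into the design of the mean of the clones and not into that of the clones, so both versions of the mean are given. A standard error is the fold change divided by the root of F. The common biological coefficient of variation came to 15.5%. CPM use the TMM factors. Promoters are from RefSeq (GRCm38.p6) and exist for 7 of the 10 genes. The script for the tests was tested on simulated data.

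The heat shock genes and the lists were chosen with earlier results of these data known. The genes named were all 10 heat shock genes, Aebp1, up to 4 genes per list, by adjusted p, and the 5 genes most like the summed Hspa1a and Hspa1b. Atf3, the neighbours of Hsf1 and the pseudogenes were named after their values were seen. Replicates of a group differed by more than counting noise. The alternatives were other size factors, no filter, DESeq2, limma on log2(TPM + 1) and log2(TPM + 0.1), fits of only the compared libraries, replicate blocks, chromosome medians taken out, counts summed per line, near-identical copies summed and each library left out. Tests ran in R 4.3.3 with DESeq2 1.42.0, edgeR 4.0.16 and limma 3.58.1, and tables in Python 3.11.15.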

Additional observations from a re-analysis of the deposited data

Results flagged for a closer look

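Both genes differ between clones labelled as knockouts of the same gene. The difference between F5 and H7 was -0.85 on the log2 scale for Hspa1b and -0.49 for Hsph1, and that between G5 and H7 was -0.78 for Hspa1b and -0.34 for Hsph1. Each was flagged because the direct comparison of the clones had an edgeR adjusted p under 0.05. Of all tested genes, 17.9% were called between F5 and H7 and 17.4% between G5 and H7. In each, all 3 libraries of the lower clone lay below all 3 H7 libraries. That held for 19.8% of all genes in F5 against H7 and for 18.5% in G5 against H7. No group of 3 libraries was tested for a single library far from the others.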

How the results depend on the processing

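The direction of Bag3 held under every alternative tried, and its call in the mean of the clones held in 23 of 24. The exception was counts summed per line (-0.32), which takes each line as a single sample, the parental line included. All the other alternatives take the passages of a line as its replicates, so they do not cover the spread between lines. Calls of single genes near the threshold depend on the libraries in the fit, since each group holds 3. Hspa1a, with 2.53 to 6.04 CPM, had the lowest counts of the tested heat shock genes. The cause of the changes below was not tested.

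Of the 9 heat shock genes, DESeq2 called 2 in G5 and 1 between the third and the first passage, and no filter gave 1 there. Both limma fits gave 1 in F5 and 0 between G5 and H7. The fit of only the compared libraries gave 1 in F5, 0 in G5 and 0 in H7. Chromosome medians taken out gave 0 in H7, and counts summed per line gave 0 for the mean of the clones. Leaving out the middle passage of every line, added after the data were seen, gave 3 for the mean and 2 in G5. Near-identical copies summed, also added then, gave 1 between G5 and H7. Over all genes, the main fit called 1012 higher and 1084 lower in F5, 961 and 965 in G5, and 1418 and 1459 in H7. For only the compared libraries it was 396 and 368 in F5, 298 and 271 in G5, and 849 and 731 in H7. DESeq2 called 1242 higher and 1251 lower in G5. Chromosome medians taken out gave 1072 higher and 1036 lower in H7.

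The passage numbers did not pair the libraries: the deviations of libraries with the same number correlated at -0.53 to 0.50, and those with the same place at 0.04 to 0.50, over 0.1 in 16 of 18 pairs. In 11 of 12 libraries the mean correlation was highest with their own place, a hint from the data. With the passage number as a replicate block the mean of the clones gave 3 genes and G5 gave 2. With the place as a block F5 gave 5 (Hspa8 and Hsp90aa1 added), G5 gave 5 (Hspa1b, Hspa8, Hsph1 and Hsp90aa1 added), F5 against H7 gave 4 and the wider lists gave 26 in place of 13. Calls over all 14704 genes rose with this block too. They were 2025 higher and 2202 lower in F5, 1925 and 2024 in G5, and 2301 and 2304 for F5 against H7. Without it they were 1012 higher and 1084 lower in F5, 961 and 965 in G5, and 1389 and 1250 for F5 against H7. With no replicate block, added after the data were seen, the mean of the clones gave 1 in place of 6.

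Leaving out 1 library in turn gave 4 to 6 for the mean of the clones, 1 to 3 in F5, 1 to 2 in G5, 0 to 3 in H7, 0 between F5 and G5, 1 to 3 between F5 and H7, 0 to 3 between G5 and H7, 3 to 5 for the middle passage, 0 to 2 for the third passage and 8 to 17 for the wider lists. Over all genes the mean of the clones had 2288 higher and 2619 lower calls, and 2383 higher and 1757 lower with limma on log2(TPM + 1).

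Directions that reversed had small log2 values. Hspb8 for the mean was at 0.00736 without a filter, 0.0217 and 0.0220 in the limma fits with 1 and 0.1 added, 0.0312 with chromosome medians taken out and 0.00371 with counts summed per line. Hspb8 in F5 was at 0.0140 and 0.0143 in the limma fits and 0.0177 with chromosome medians taken out, and in G5 at 0.00551 and 0.00552 in the limma fits. Without the middle passages Hspb8 in H7 was at -0.0783 and Hsf1 in G5 at -0.0271. Hspa1b in H7 was at -0.159 with the passage number as a replicate block, and Hsf1 in H7 at -0.0145 with chromosome medians taken out.

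Without 1 library in turn, Hspb8 ran over -0.0731 to 0.0646 in the mean, -0.174 to 0.102 in F5, -0.216 to 0.0828 in G5 and -0.128 to 0.149 in H7. Dnajb1 ran over -0.116 to 0.0306 in the mean, -0.147 to 0.0372 in F5, -0.172 to 0.0157 in G5 and -0.154 to 0.0302 in H7. Hsf1 in G5 ran over -0.0175 to 0.186 and Hspa1b in H7 over -0.0668 to 0.338.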

Other observations

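Chaperones of other compartments moved in both directions in the clones, by the edgeR fit for the mean of the clones without a place term, in which 8.55% of all genes were called higher and 10.5% lower. All 7 mitochondrial chaperone genes tested had a positive fold change, with a median of 0.35, and 3 were called higher. Hspa9, the mitochondrial HSP70, stood at 0.87 (SE 0.10, adjusted p = 0.000193), the J protein gene Dnaja3 at 0.48 (SE 0.08, adjusted p = 0.00211) and the mitochondrial HSP90 gene Trap1 at 0.38 (SE 0.06, adjusted p = 0.00217). All 3 were also called higher in F5, G5 and H7. Of 13 chaperone genes of the endoplasmic reticulum, 5 were lower and 0 higher, with 1 higher at an unadjusted p under 0.05 and a median of -0.09. Among them, Calr stood at -0.45 (SE 0.13, adjusted p = 0.0351), Hsp90b1 at -0.38 (SE 0.08, adjusted p = 0.00806), Pdia3 at -0.36 (SE 0.08, adjusted p = 0.00675) and Dnajc3 at -0.31 (SE 0.08, adjusted p = 0.0263). The median over all genes was -0.02.

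Other genes that heat can induce gave 1 call among 7. Sqstm1, whose protein is a receptor of selective autophagy and works beside BAG3, stood at 0.45 (SE 0.06, adjusted p = 0.000605) and was called higher in each clone, where Bag3 was lower. Of 12 immediate early genes, 5 were lower and 1 higher by the same fit. Zfp36 stood at -0.76 (SE 0.06, adjusted p = 2.97e-05), Ier3 at -0.64 (SE 0.13, adjusted p = 0.00608) and Junb at -0.62 (SE 0.12, adjusted p = 0.00466). Fos stood at -1.27 (SE 0.23, adjusted p = 0.00338) for the mean, and was called lower in F5 and G5 and not in H7 (-0.59, adjusted p = 0.201). Atf3, a stress-induced transcription factor gene, was the higher one at 1.72 (SE 0.35, adjusted p = 0.00615).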
